A study of Mus musculus with 6 samples.

Results

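The transcripts described here encode 10 enzymes that make serine and proline and that carry one-carbon units on folate. They were taken by name from a list: Phgdh, Psat1, Psph, Shmt1, Shmt2, Mthfd1, Mthfd1l, Mthfd2, Pycr1 and Aldh18a1. Each was found on 1 row of the table, and all 10 are among the 23094 rows that carry a gene name. RNA was sequenced from fetal liver erythroid cells of C57BL/6 mice at embryonic day 13.5, sorted as positive for the transferrin receptor CD71 and the red cell antigen Ter119. One group is labelled Tfam WT (n = 3 libraries) and the other Tfam KO (n = 3), and Tfam encodes a factor that packages and transcribes mitochondrial DNA. The labels name no deleted exon, Cre driver, litter or sex, nor do they tie a replicate to its own embryo. The p-values therefore cover the spread among these libraries, which may be technical.

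Serine is built from the glycolytic intermediate 3-phosphoglycerate in the cytosol by Phgdh, Psat1 and Psph in turn. Its side-chain carbon is then passed to tetrahydrofolate by a serine hydroxymethyltransferase, Shmt1 in the cytosol or Shmt2 in mitochondria, and the folate-bound carbon is interconverted by Mthfd1 in the cytosol and by Mthfd2 and Mthfd1l in mitochondria. The formate that mitochondria release supplies purine and thymidylate synthesis, and the glycine formed from serine is a substrate of heme synthesis in red cell precursors. Proline is built from glutamate by Aldh18a1 and then Pycr1 in mitochondria, and Pycrl is a cytosolic paralog of Pycr1. Several of these genes are known targets of ATF4, the transcription factor of the integrated stress response, which mitochondrial defects can engage.

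Promoter windows of all 10 genes were read from RefSeq (build GRCm38.p6, 250 bases before to 50 bases after each annotated start, 11 windows because Psat1 has 2 starts). They were searched on both strands for TGATGNAA, the composite element bound by C/EBP and ATF factors, for the cAMP response element TGACGTCA and for the E-box CACGTG. Each of the first and the last was found in 1 gene, and both genes make proline. The stretches around the matches are shown because Pycr1 was the member whose libraries separated by group, and Aldh18a1 catalyses the step before it. Both are written 5′ to 3′ on the minus strand of the build with the match in capitals. The Pycr1 stretch is chr11:120643804-120643891 and its match begins at position -103 from the start. The Aldh18a1 stretch is chr19:40588477-40588562 and its match begins at -59.
Pycr1: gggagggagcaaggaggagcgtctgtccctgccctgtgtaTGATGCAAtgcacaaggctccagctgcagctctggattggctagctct
Aldh18a1: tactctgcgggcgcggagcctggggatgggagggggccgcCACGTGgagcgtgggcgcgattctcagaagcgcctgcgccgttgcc

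The composite element was present in 3.97% of 32851 promoter windows of this length, the cAMP response element in 1.79% and the E-box in 7.15%. The composite element matched in Pycr1 alone of the 10 genes, the E-box in Aldh18a1 alone, and the cAMP response element in 0 of 10. A match describes the letters in the window only, and no binding was measured. Among 9 integrated stress response genes listed for comparison, the composite element was in the windows of Asns, Chac1 and Trib3. In the other related lists it was in Slc1a4, of the serine and folate transport list, and in 0 matched genes of the remaining 5 lists.

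Values are RPKM, read numbers divided by transcript length and by the mapped total, as the authors deposited them. Their sum was 815524 in WT replicate 3 and between 423263 and 535933 in each of the other libraries. WT replicate 3 also favoured short transcripts. On the log2(RPKM + 1) scale its median departure from the all-library mean was 0.66 over 1656 genes of short and -0.53 over 1652 genes of long transcripts. The summed level of 9 erythroid markers was 10100 to 13600 RPKM in WT and 8730 to 12900 in KO, and each marker had a mean of at least 1. Marker sums of other cell types were 39.2 to 85.6 RPKM in WT and 14.8 to 137 in KO for 9 hepatocyte genes, and 39.2 to 173 and 28.6 to 74.2 for 8 neutrophil genes. They were 12.2 to 18.7 in WT and 4.55 to 11.7 in KO for 9 macrophage genes, without overlap, and 39.6 to 73.2 and 26.1 to 83.6 for 6 megakaryocyte genes. No marker on these lists was at 0 in all libraries.

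The targeted gene, Tfam, had 7.22, 8.44 and 5.72 RPKM under the WT label and 5.92, 7.22 and 6.25 under the KO label. These values overlapped, with p = 0.7 in an exact permutation test (two-sided; 3 against 3 cannot go below 0.1). A gene-level value cannot show the loss of part of a gene, so WT and KO name libraries by their labels.

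The mitochondrial folate enzymes were the most abundant of the 10 transcripts. Mthfd2 averaged 127.9 ± 19.8 RPKM over the 6 libraries (SD, n = 6), at or above 92.9% of the 8302 rows tested, and Shmt2 averaged 78.0 ± 11.5, at or above 88.7%. Next came Mthfd1l at 22.3 ± 3.45, Phgdh at 15.4 ± 4.35, Psat1 at 13.6 ± 3.34 and Mthfd1 at 11.5 ± 2.36. Aldh18a1 averaged 7.53 ± 1.79, Psph 7.32 ± 1.51, Pycr1 3.33 ± 0.962 and Shmt1 1.10 ± 0.227. RPKM is scaled to transcript length, so these levels can be set beside each other. In this order every library of Mthfd2 lay above every library of Shmt2, as did Shmt2 above Mthfd1l, Psph above Pycr1 and Pycr1 above Shmt1. From Mthfd1l to Psph each neighbouring pair overlapped in range. Phgdh was above Psat1 in 4 of 6 libraries and Aldh18a1 above Psph in 5 of 6.

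In the comparison of KO with WT, which asks how these transcripts differ between libraries labelled Tfam KO and Tfam WT, the fitted value of all 10 members was higher in KO, by 0.04 to 0.51 on the log2(RPKM + 1) scale. The median was 0.12, against -0.02 for all rows tested, of which 47.0% had a higher fitted value. After quantile normalization 9 of 10 were higher, and without WT replicate 3 it was 8 of 10 (median 0.20) against 44.9% of all rows. No member passed the limma test with Benjamini-Hochberg adjustment over all rows at 0.05 (adjusted p 0.909 to 0.959), nor did any other row (0% of 8302 rows called). At an unadjusted limma p under 0.05 there was 1 member, Pycr1, where 0.747% of all rows were higher in KO by that measure. Leaving out WT replicate 3 did not bring a member past the threshold (limma adjusted p = 1 for each), with 0.0120% of all rows called. The genes were chosen with earlier results of these data known, so their shared sign is a description.

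**Figure D1:**
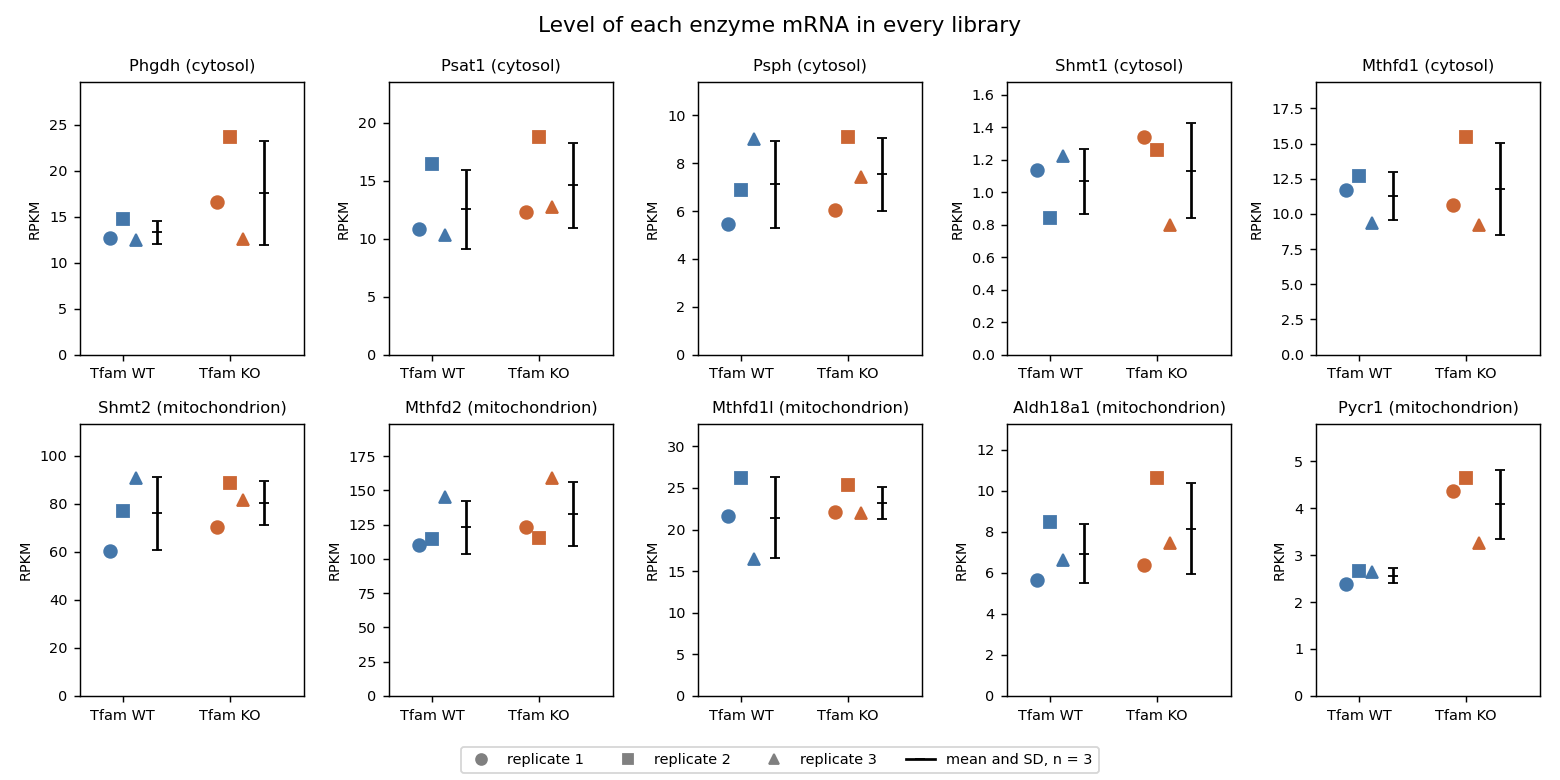
RPKM of each enzyme transcript (y axis, from 0, scaled separately per gene) in the 3 Tfam WT and 3 Tfam KO libraries, with point shapes for the replicate numbers and bars for the mean and SD. Pycr1 is the one gene whose KO points (3.26 to 4.65) all lie above its WT points (2.38 to 2.67).

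The proline branch held the one member whose groups did not overlap. Pycr1, which carries out the last step of proline synthesis, was at 2.38, 2.67 and 2.64 RPKM in WT and at 4.36, 4.65 and 3.26 in KO. Every KO library was above every WT library, with the lowest KO level in replicate 3. Group means were 2.56 ± 0.163 and 4.09 ± 0.733 (SD, n = 3 each), a ratio of 1.60. The fitted difference was 0.51 (SE 0.16, 95% interval 0.13 to 0.88, limma unadjusted p = 0.0153, adjusted p = 0.909). Without WT replicate 3 it was 0.52. When limma weighted the libraries by their own spread, Pycr1 passed (0.64, adjusted p = 0.0301), as 1 of 60 rows called among 8302. That fit gave WT replicate 1 a weight of 21.4, WT replicate 2 one of 0.565 and WT replicate 3 one of 0.0859. The estimation of these weights stopped before full convergence. One of 10 members therefore had separated groups with KO higher, where 2.18% of all rows did. Without WT replicate 3 there were 2 such members, Pycr1 and Mthfd2, against 5.42% of all rows.

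Aldh18a1, which makes the precursor of the compound that Pycr1 reduces, was at 5.65, 8.49 and 6.62 RPKM in WT and at 6.39, 10.6 and 7.44 in KO. The groups overlapped, and replicate 2 was highest in both. The fitted difference was 0.20 (95% interval -0.32 to 0.72). The ratio of Pycr1 to Aldh18a1 within a library was 0.421, 0.315 and 0.399 in WT and 0.683, 0.438 and 0.438 in KO. These ratios did not overlap, with 0.421 and 0.438 nearest to each other. They hold the same Pycr1 values, so they are not a separate result. Every other ratio taken between genes overlapped, and no share over all pairs of rows was computed.

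Pycrl, the cytosolic paralog of Pycr1, was at 9.23, 8.48 and 16.1 RPKM in WT and at 7.50, 9.09 and 9.97 in KO. Its groups overlapped and WT replicate 3 stood highest. The difference was -0.27 (95% interval -0.86 to 0.31), and -0.007 without that library.

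In the serine branch the fitted values of all 3 enzymes were higher in KO and every group overlapped. Phgdh, the first and committed step, was at 12.6, 14.7 and 12.5 RPKM in WT and at 16.6, 23.7 and 12.5 in KO. KO replicate 2 stood highest, and KO replicate 3 lay among the WT libraries. Its means were 13.3 ± 1.26 and 17.6 ± 5.64, and the fitted difference was 0.34 (95% interval -0.21 to 0.89). Psat1, the aminotransferase of the second step, was at 10.9, 16.4 and 10.3 RPKM in WT and at 12.3, 18.8 and 12.7 in KO. Replicate 2 was the highest of both groups, and the difference was 0.21 (95% interval -0.36 to 0.77), or 0.09 without WT replicate 3. Psph, the phosphatase that releases serine, was at 5.44, 6.88 and 9.02 RPKM in WT and at 6.07, 9.11 and 7.43 in KO. The highest WT and highest KO library were nearly level, and the difference was 0.08 (95% interval -0.43 to 0.59), or 0.25 without WT replicate 3.

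The mitochondrial folate enzymes differed by less than their spread. Shmt2, which takes the one-carbon unit from serine, was at 60.1, 77.1 and 90.6 RPKM in WT and at 70.3, 88.6 and 81.4 in KO, with the highest of all 6 in WT replicate 3. Its difference was 0.09 (95% interval -0.40 to 0.58), or 0.22 without that library. Mthfd2, the dehydrogenase and cyclohydrolase that acts next, was at 109.8, 114.3 and 145.3 RPKM in WT and at 123.3, 115.5 and 159.0 in KO. Replicate 3 was the highest of both groups. The difference was 0.10 (95% interval -0.40 to 0.61), and 0.23 without WT replicate 3, when the KO libraries lay just above the remaining WT ones. Mthfd1l, which releases formate, was at 21.6, 26.2 and 16.4 RPKM in WT and at 22.1, 25.4 and 22.0 in KO. The KO libraries lay within the WT range, and the difference of 0.13 (95% interval -0.33 to 0.59) turned to -0.04 without WT replicate 3, the lowest library.

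The cytosolic folate enzymes had the smallest fitted differences of the 10 when all libraries were used. Shmt1 was at 1.14, 0.843 and 1.22 RPKM in WT and at 1.34, 1.26 and 0.799 in KO, with KO libraries at both ends of the range. It lay just above the filter of a mean RPKM of 1, and its difference was 0.04 (95% interval -0.37 to 0.44). Mthfd1, the trifunctional cytosolic enzyme, was at 11.7, 12.7 and 9.36 RPKM in WT and at 10.7, 15.5 and 9.24 in KO. KO libraries again held the highest and the lowest value, and the difference of 0.04 (95% interval -0.47 to 0.55) was -0.07 without WT replicate 3.

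**Figure D2:**
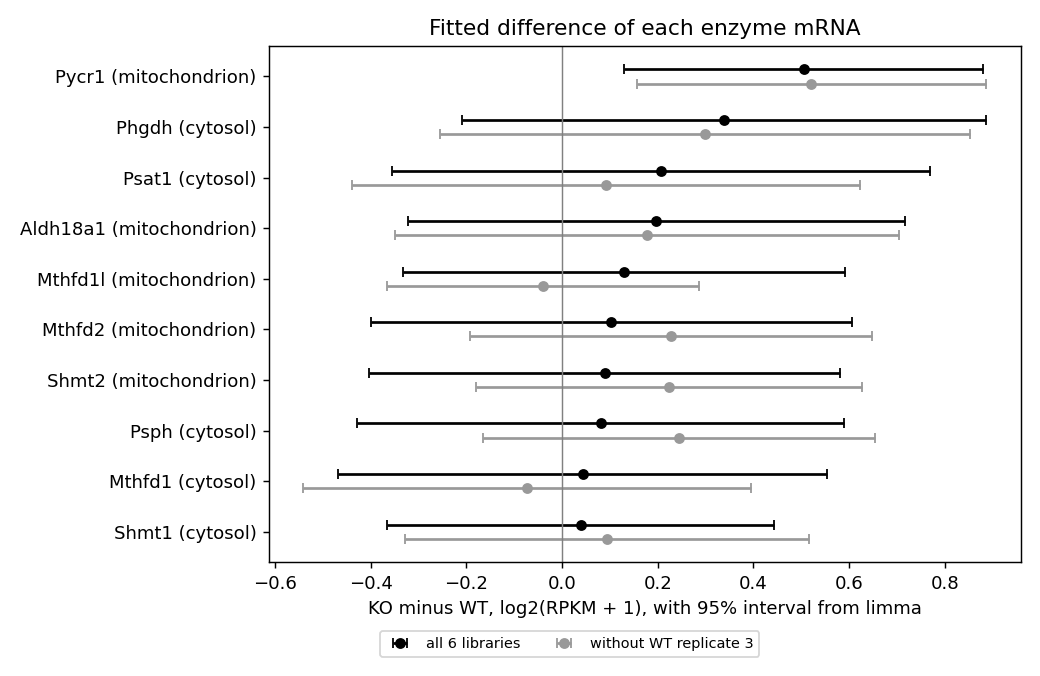
Fitted difference KO minus WT of each enzyme transcript (x axis, log2(RPKM + 1)) with its 95% interval from limma, in black for all 6 libraries and in grey without WT replicate 3. The interval of Pycr1 (0.13 to 0.88) lies above 0 and the intervals of the other 9 include 0; Mthfd1 and Mthfd1l change sign between the fits.

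Within each library the mean log2 level of the 5 mitochondrial enzymes (Shmt2, Mthfd2, Mthfd1l, Aldh18a1 and Pycr1) was set against that of the 5 cytosolic ones (Phgdh, Psat1, Psph, Shmt1 and Mthfd1). The mitochondrial excess was 1.39, 1.46 and 1.50 in WT and 1.50, 1.32 and 1.71 in KO. Both the lowest and the highest excess were in KO libraries. Means were 1.45 ± 0.060 in WT and 1.51 ± 0.195 in KO (SD, n = 3 each), so the KO minus WT change of 0.06 was smaller than the pooled SD of 0.14. It was 0.09 without WT replicate 3, -0.04 without KO replicate 3, 0.16 without KO replicate 2 and 0.13 after quantile normalization. The mean of the mitochondrial enzymes alone was higher by 0.20 in KO and that of the cytosolic enzymes by 0.14.

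The contrast was also taken over the folate enzymes alone. Shmt2, Mthfd2 and Mthfd1l exceeded Shmt1 and Mthfd1 by 3.36, 3.64 and 3.68 in WT and by 3.50, 3.41 and 3.97 in KO, a change of 0.07 against a pooled SD of 0.24. That change was -0.10 without KO replicate 3 and -0.03 without WT replicate 1. It was 0.17 without KO replicate 2, 0.13 without WT replicate 3 and 0.22 after quantile normalization. Shmt2 exceeded Shmt1 by a ratio of 52.9, 91.5 and 74.0 in WT and 52.5, 70.4 and 102 in KO, with overlap throughout. Mthfd2 exceeded Mthfd2l, its low-level mitochondrial paralog (1.90 ± 1.24 RPKM in WT and 1.67 ± 0.377 in KO, n = 3 each), by a ratio of 34.4 to 126 in WT and 76.5 to 86.4 in KO.

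**Figure D3:**
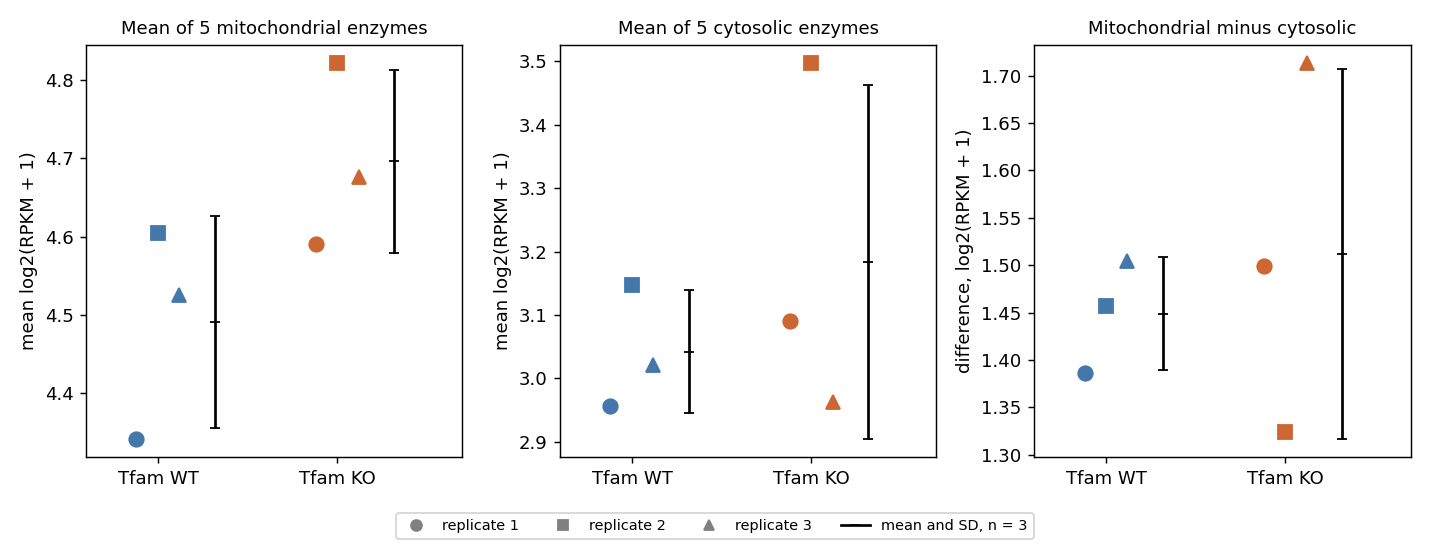
Mean log2(RPKM + 1) of the 5 mitochondrial enzymes (left), of the 5 cytosolic enzymes (middle) and their difference (right) in each library, with bars for the mean and SD of 3 libraries and y axes that do not start at 0. KO replicates 2 (1.32) and 3 (1.71) enclose all WT libraries in the right panel.

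The members did not vary alike from library to library. KO replicate 2 held the highest level of 6 members (Phgdh, Psat1, Psph, Mthfd1, Aldh18a1 and Pycr1), and WT replicate 1 the lowest of 5 (Psph, Shmt2, Mthfd2, Aldh18a1 and Pycr1). KO replicate 2 also had the highest summed level of the 9 hepatocyte markers (136.8 RPKM against 14.8 to 85.6 in the others), and the part of such cells in these levels was not tested. In bulk RNA, fewer cells of a type and less RNA per cell cannot be told apart. WT replicate 3 lay above the mean of the other WT libraries on the log2(RPKM + 1) scale by 0.49 for Psph, 0.41 for Shmt2 and 0.37 for Mthfd2, whose longest annotated coding transcripts have 1733, 2289 and 2085 bases. It lay below that mean by a difference of -0.51 for Mthfd1l (3687 bases), -0.35 for Mthfd1 (3241 bases) and -0.35 for Psat1 (2617 bases). For Pycr1 (2914 bases) it differed by 0.05. For Phgdh (1893 bases) it differed by -0.12, for Shmt1 (2858 bases) by 0.165 and for Aldh18a1 (3527 bases) by -0.06. The departures did not follow transcript length in every member, and the part of length in them was not tested.

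The replicate numbers were taken to pair the libraries, which no label states, and within these pairs the members leaned to KO. The pairing was inferred from the same values, which cannot establish it. Deviations from group means correlated at 0.17 in pair 2, but at 0.40 for WT replicate 2 with KO replicate 1. KO exceeded WT in 9 of 10 members in pair 1 (44.7% of all rows), in 9 of 10 in pair 2 (41.1%) and in 6 of 10 in pair 3 (48.3%). Phgdh, Psat1, Mthfd2, Aldh18a1 and Pycr1 were higher in KO in every pair, 5 of 10 members where 10.8% of all rows were. For Phgdh the values of pair 3 rounded to the same 12.5 RPKM. With the replicate block no member passed (limma adjusted p 0.715 to 0.923). With trends in transcript length and GC content removed from each library and the block kept, 5 members (Phgdh, Psat1, Psph, Shmt2 and Pycr1) had a higher value at an unadjusted limma p under 0.05, where 3.99% of all rows did. The differences of Phgdh (0.52) and Pycr1 (0.53) were the largest of the 10 in that fit, and the adjusted p of the members was 0.602 to 0.919. The count of 5 depended on the block. With the same trends removed and no block, Pycr1 alone was below that level (limma unadjusted p = 0.0116). Phgdh was then at 0.127, Psat1 at 0.372, Psph at 0.151 and Shmt2 at 0.199. In that unblocked fit 94 of 8261 rows were higher in KO at an unadjusted p under 0.05. Without WT replicate 3 and without the block, Pycr1 alone was past an unadjusted limma p of 0.05, with 1.51% of all rows higher in KO by that measure.

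The genes around these enzymes did not share one direction. Of all rows tested, 47.0% had a higher fitted value in KO, and 44.9% without WT replicate 3. Mtr shares its row with Gm10336 and Pfas with Mir3062, so those values belong to both names. In the folate and methyl cycle the fitted value was higher in 5 and lower in 7 of 12 tested genes (median -0.10). Purine synthesis had 4 of 6 higher (0.06), glycine cleavage 1 of 2 (0.03), serine use 1 of 3 (-0.02), and the other proline enzymes 1 of 4 (-0.16, and 0.02 without WT replicate 3). Among transporters of serine and folate 5 of 6 were higher (0.14), and 3 of 6 without WT replicate 3. Without WT replicate 3 the counts were 3 of 12 for the folate and methyl cycle (-0.07), 2 of 6 for purine synthesis (-0.05), 1 of 2 for glycine cleavage (0.01) and 1 of 3 for serine use (-0.16). Of the genes in these lists that passed the filter, 0 passed the limma test over all rows and 0 had an unadjusted p under 0.05 without the replicate block. With the block there was 1, Ggh, a gamma-glutamyl hydrolase of folates, singled out after its values were seen. In that fit 179 of 8302 rows were lower in KO at an unadjusted limma p under 0.05. Ggh was at 3.06, 3.46 and 6.04 RPKM in WT and at 1.36, 1.57 and 3.86 in KO, lower in KO in each pair although the groups overlapped. The share of all rows lower in each pair was not computed. The fitted difference of Ggh was -0.70 (limma with the block, unadjusted p = 0.00303, adjusted p = 0.715).

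Few of these genes separated the groups, and 2.18% of all rows tested had separated groups with KO higher. Slc25a32, the carrier that brings folate into mitochondria, was at 1.55, 1.67 and 1.26 RPKM in WT and at 2.00, 1.90 and 1.71 in KO, all KO above all WT, with a difference of 0.21 (95% interval -0.13 to 0.54), and 0.02 with trends in transcript length and GC content removed. Sfxn1, a mitochondrial serine carrier, overlapped at 17.3, 18.0 and 14.6 RPKM in WT and 16.2, 20.0 and 16.0 in KO. A pair of genes with a mean RPKM below 1, outside the filter, also had separated groups. The 2.18% does not cover such rows, and no share over them was computed. Without the filter, 241 of 15868 rows were higher in KO at an unadjusted limma p under 0.05. Cth, which makes cysteine from cystathionine, was at 0.518, 0.586 and 0.611 RPKM in WT and 1.53, 1.52 and 1.02 in KO. Without the filter its difference was 0.58 (95% interval 0.28 to 0.88, limma unadjusted p = 0.00326, adjusted p = 0.931). Sfxn3, a paralog of Sfxn1, was at 0.670, 0.583 and 0.736 RPKM in WT and 1.51, 1.07 and 0.815 in KO, with a difference of 0.35 (limma unadjusted p = 0.0475, adjusted p = 0.931).

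Of the integrated stress response genes, 6 of 9 had a higher fitted value (median 0.21), where 47.0% of all rows tested did, and 0 passed. Atf5, Trib3 and Sesn2 had separated groups with KO higher, where 2.18% of all rows tested did. The 3 genes with a lower fitted value were Atf4, Ddit3 and Asns. Atf4 was at 324.3, 325.8 and 591.2 RPKM in WT and at 275.7, 296.0 and 393.5 in KO, with overlapping groups. Its difference was -0.32, and -0.03 without WT replicate 3. That of Ddit3 was -0.37, and 0.10 without that library. With library weights Atf5 (1.46, limma adjusted p = 0.00101) and Trib3 (1.58, adjusted p = 0.00484) passed, among 60 of 8302 rows called. Atf5 was at 5.68, 7.97 and 7.84 RPKM in WT and at 17.5, 18.7 and 15.2 in KO, while Asns, asparagine synthetase and another ATF4 target, was at 159.8, 196.3 and 222.5 in WT and 149.0, 187.4 and 194.4 in KO. Trib3, a pseudokinase gene with the composite element in its promoter window, was at 1.85, 3.75 and 3.52 RPKM in WT and 7.22, 7.80 and 8.37 in KO. Asns and Chac1 hold the same element and their groups overlapped over all 6 libraries. Chac1 was at 0.981, 1.41 and 3.22 RPKM in WT and 1.53, 1.57 and 4.27 in KO. Its groups separated with KO higher once WT replicate 3 was left out, while those of Asns still overlapped. Without that library 7 of 9 stress response genes had a higher fitted value, against 44.9% of all rows. Separated groups with KO higher were then seen in 5 of 9, where 5.42% of all rows had them.

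**Figure D4:**
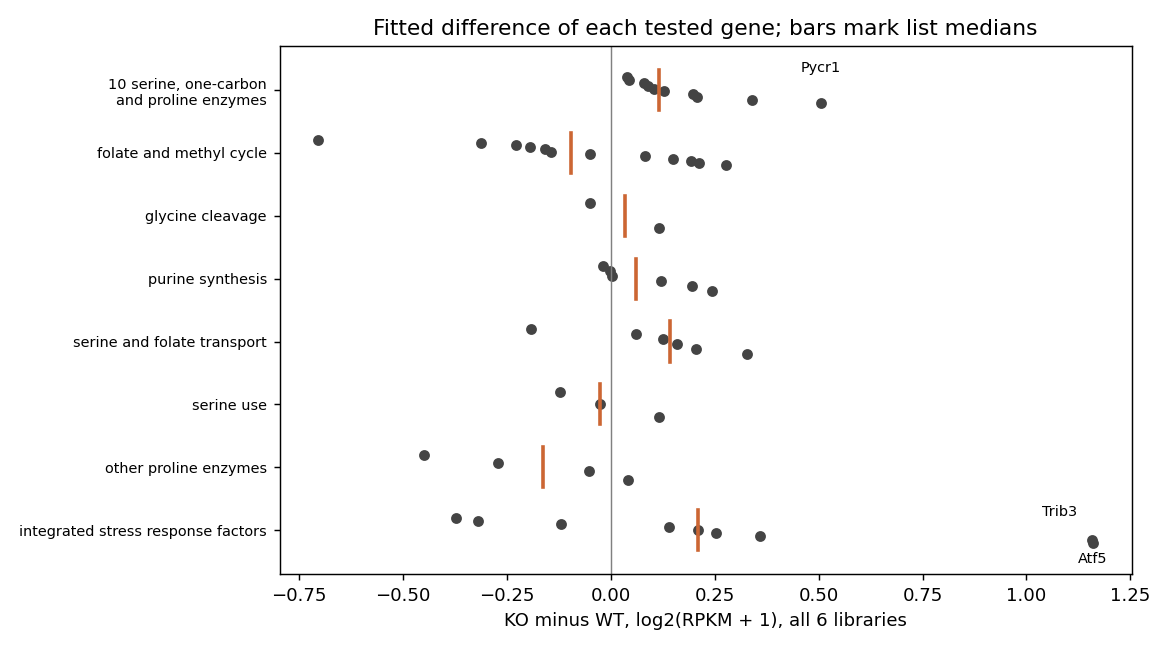
Fitted difference KO minus WT (x axis, log2(RPKM + 1), all 6 libraries) of each tested gene in the 10 enzymes and in 7 related lists, with an orange bar at each list's median. The 10 enzymes lie between 0.04 and 0.51, and Atf5 and Trib3 at 1.16.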

How the data were processed

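The authors deposited a table of RPKM values with 1 column for each of 6 libraries and 23119 rows. Per the submitters' processing notes, TopHat and Cufflinks were used with build mm9. Versions, annotation and strandedness: not given in the sources used here. The 25 rows named by a number (a mean of 0.158% of the RPKM sum) were left out. RPKM values hold no read totals. Ratios of values below 0.05 RPKM to WT replicate 2 lay on whole-read steps (within 0.03, log2) for 44.3% to 82.1% of rows in KO libraries and WT replicate 1, which gave relative depths of 80.4% to 93.0%. For WT replicate 3 this was 21.4%, against 15.8% for even spacing, so its depth was not resolved, and no counting intervals could be given.

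Rows were kept where RPKM averaged 1 or more over the libraries (8302 rows), transformed to log2(RPKM + 1) and fitted in limma (version 3.58.1, R 4.3.3) using a variance trend, and p-values were Benjamini-Hochberg adjusted over all rows. Differences on this scale understate changes of low genes. The members, lists, motifs and tests were chosen with earlier results of these data known. The naming rule gives all 10 members, Tfam, genes of related lists whose groups do not overlap, Mthfd2l, Pycrl and Sfxn1; another gene it gives is not reported here. Asns, Chac1, Atf4, Ddit3 and the within-library ratios were picked with their values in view. The test was checked on simulated data, drawn separately for each row from its mean and spread. It recovered 37% of 100 changes of 1 and 90% of 100 changes of 2 (log2). Smaller changes, such as the differences of the members, were not simulated. The labels number replicates alike in both groups. Deviations from group means correlated at 0.46, 0.17 and 0.53 between same-numbered libraries. Because each was above 0.1, the numbers were taken to pair them in the fits with the block. The correlations used values with length trends still in place. Pairing and a trend shared by libraries cannot be told apart in them, so they do not establish pairs. No label states this pairing, and the value for WT replicate 2 with KO replicate 1 was 0.40. Alternatives were another pseudocount (0.1), no filter or a mean RPKM of at least 5, no trend, quantile normalization, scaling to the RPKM sum, library weights, the replicate block, removal of length and GC trends (GENCODE vM21 transcripts) and leaving out each library. Figures were drawn with matplotlib 3.10.9.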

Additional observations from a re-analysis of the deposited data

How the results depend on the processing

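Of 158 values of the 10 members under 16 alternatives, 146 kept their direction without passing, 11 changed sign and 1 (Pycr1 with library weights, 0.64) passed. Changing the filter, dropping the variance trend or adding the replicate block leaves a fitted difference as it was. Values under those alternatives could therefore not change sign, and they add to the count of kept directions. Aldh18a1, Phgdh, Psat1 and Pycr1 kept their sign in each alternative that could be run for them, and Pycr1 ranged from 0.42 to 0.68. Leaving out 1 library at a time gave 0.113 to 0.546 for Phgdh, 0.023 to 0.404 for Psat1 and 0.012 to 0.338 for Aldh18a1, each lowest without KO replicate 2. The same fits gave -0.074 to 0.245 for Psph, -0.041 to 0.157 for Shmt1, -0.155 to 0.188 for Mthfd1, -0.068 to 0.224 for Shmt2, -0.034 to 0.227 for Mthfd2, -0.040 to 0.280 for Mthfd1l, -0.223 to 0.279 for Mthfd2l, -0.037 to 0.118 for Sfxn1 and -0.242 to 0.003 for Tfam. After quantile normalization Shmt1 was at -0.020, and Mthfd2l (-0.050 with the main settings) turned to 0.049 with scaling to the RPKM sum, 0.188 with library weights and 0.004 with length and GC trends removed, with or without the block. The cause of these sign changes was not tested. From 7 (without KO replicate 2) to 9 members had a higher fitted value when 1 library was left out. The count of rows called was 0 in each fit except with library weights (60) whose estimation stopped before full convergence, and without 1 library (0 to 2: 1 without WT replicate 3, 2 without KO replicate 2 and 1 without KO replicate 3). With the replicate block 0 rows were called, and no call of a member changed. Scaling to the RPKM sum moved the median of all rows from -0.02 to 0.17 and turned Tfam to 0.077. At a mean RPKM of at least 5, Pycr1 and Shmt1 were not tested, and the compartment contrast could not be formed. For WT replicate 3 no counting error can be given, since its depth could not be recovered from the values.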
